A study of Mus musculus with 8 samples.

Results

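The genes described here are 37 mouse genes of the hypoxia response and of glycolysis, out of 24538 gene IDs in the expression files. They were taken by gene ID from a fixed list of names, and all 37 were found. The list was proposed with the RNA values of these same libraries known, so the RNA differences of its genes are given as a description and are not used as a test of anything. The list holds 3 regulators of the hypoxia-inducible factor HIF, 12 HIF targets outside metabolism, 3 transporters of glucose or lactate, 16 glycolytic enzymes or their regulators and 3 genes of the lactate and pyruvate branch.

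HIF is a transcription factor whose alpha subunit is hydroxylated by oxygen-dependent prolyl hydroxylases and then degraded, so that it accumulates when oxygen is short. It binds short motifs with the core ACGTG or GCGTG and switches on genes for blood vessel growth, mitophagy, collagen folding, glucose uptake and glycolysis. Glycolysis converts glucose to pyruvate, which lactate dehydrogenase turns into lactate or pyruvate dehydrogenase passes to the citrate cycle. Haematopoietic progenitors in the bone marrow are known for their reliance on HIF and glycolysis.

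The knockout group came from mice with an inducible Cre (CreER+) and floxed Tcf7 and Lef1 alleles, labelled Tcf1Lef1KO, and the wild-type group from CreER+ mice labelled WT. TCF1, the product of Tcf7, and LEF1 are transcription factors of early T-cell development. LSK progenitors from bone marrow of both groups were cultured on OP9-DL1 stroma, which presents a Notch ligand, and both received 4-OH tamoxifen from day 3 to day 5. Lin-CD8-CD4-CD44hiCD25- ckit+ cells (DN1, the earliest stage of T-cell development) were sorted on day 7, and 2 knockout and 2 wild-type libraries were made for RNA-seq and again for ATAC-seq, which marks open chromatin. The labels state neither the promoter that drives CreER, nor the age of the mice, the oxygen level of the culture or any pooling of animals. Nothing says that replicates came from separate animals or cultures, so the spread between them may be technical.

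Tcf7, the deleted gene, stood at 13.2 and 12.4 TPM (transcripts per 1000000) in the knockout libraries and at 518 and 510 TPM in the wild-type libraries, while Lef1 was between 1.10 and 1.66 TPM in all 4. Of the sort markers, Kit was at 157 TPM in both knockout libraries and at 251 and 238 TPM in wild type. Cd44 lay between 94.0 and 109 TPM in all 4. Among further progenitor markers, Ptprc was lower in knockout (129 and 142 TPM against 207 and 232 TPM in wild type). Cd34 was higher in knockout (227 and 232 TPM against 125 and 116 TPM), as was Flt3 (25.8 and 30.4 TPM against 20.5 and 18.6 TPM). Cd4 did not exceed 0.318 TPM, and Cd8a did not exceed 1.98 TPM. Il2ra, which encodes CD25, was at 0.658 and 0.393 TPM in knockout but at 136 and 133 TPM in wild type, although both were gated as CD25-negative. Relative depth, read from the ratio of deposited coverage to FPKM, was 2.64 and 2.63 in the knockout libraries against 2.41 and 2.12 in the wild-type libraries. The ATAC lists held 109380 and 111007 peaks in knockout and 103009 and 105227 peaks in wild type.

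Most genes of the hypoxia response and of glycolysis had less RNA in knockout than in wild-type cells. Of the 37 genes, all of which passed the filter on low values, 28 were lower and 2 higher in knockout past the threshold of a limma fit over all genes (adjusted p under 0.05), and 7 did not pass. The fit called 14.7% of 13228 genes lower and 25.2% higher (39.8% in either direction), and no inference is drawn from the difference, because the list was proposed with these values known. The median difference in log2(TPM + 1), knockout minus wild type, was −0.63 over the 37 genes and 0.093 over all genes tested. Together the 37 genes took 5308 and 5132 TPM in knockout libraries and 7648 and 7749 TPM in wild-type libraries.

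The HIF targets outside metabolism stood furthest down, with a median difference of −1.07, while the 16 glycolytic enzymes had a median of −0.53. Both knockout libraries lay below both wild-type libraries for 33 genes and above them for 2, Hif1a and Ldhb; the same held for 29.0% and 44.4% of all genes tested, and with a difference of at least 0.5 in size for 12.3% and 17.7%. A single RNA, Rpph1, took 15.2% and 15.8% of all TPM in knockout and 19.3% and 19.2% in wild type, and the split of calls over all genes depended on the scaling. As deposited, 1940 genes were lower and 3331 higher, against 2296 and 2608 after quantile normalization and 2512 and 2451 after median-ratio scaling. Of the 37 genes, 31 and 32 were lower under those scalings and 2 higher under each. In bulk samples, fewer cells of a type and less RNA per cell cannot be told apart.

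**Figure D1:**
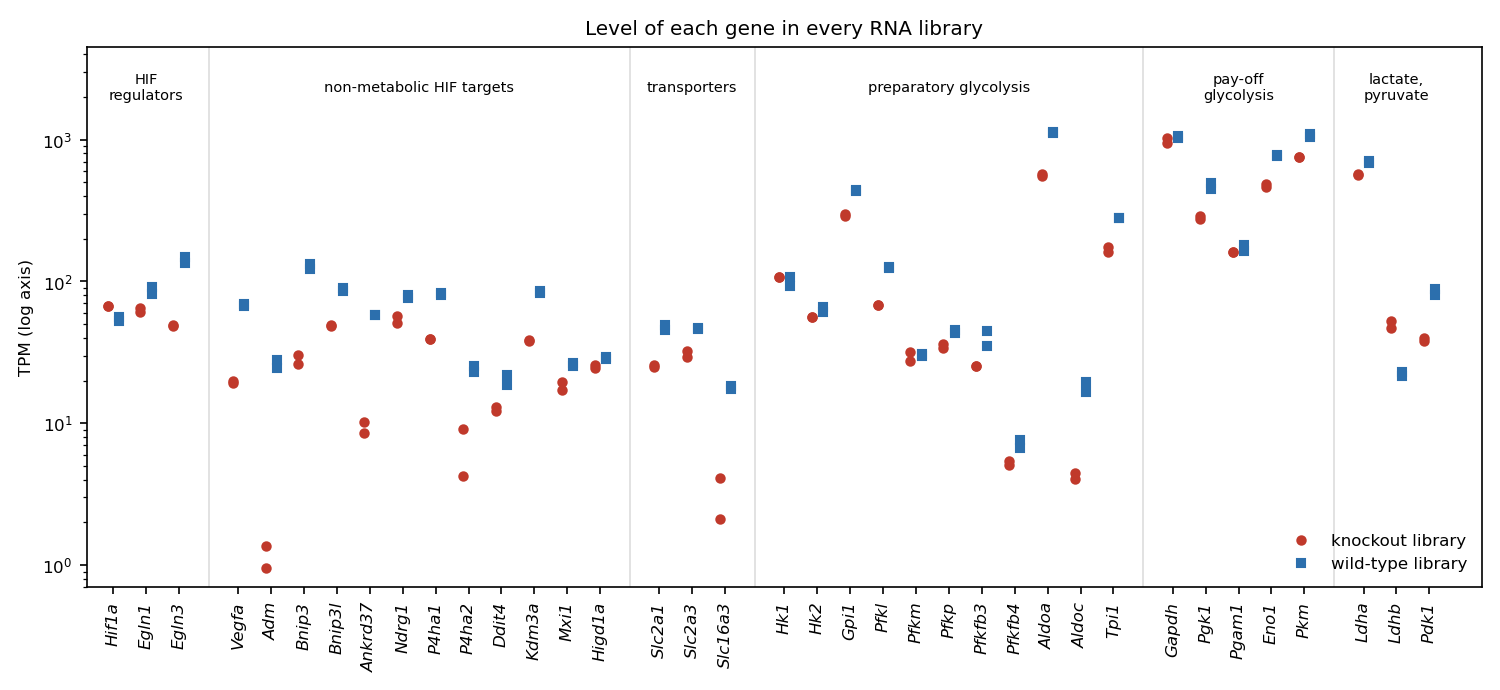
TPM of each of the 37 genes in every RNA library on a log axis, with knockout libraries as circles and wild-type libraries as squares, grouped by role. The symbols of the 2 genotypes lie apart for 35 genes, and only Hif1a and Ldhb have both circles above both squares.

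Markers of other cell types, and a list of stress genes, moved with genotype in the same libraries, beside 25.2% of all genes tested called higher and 14.7% called lower. Of 12 tested stromal markers, 9 rose in knockout, and Sparc, Pdgfrb and Thbs1 missed the threshold. Thbs1 lay lower in knockout (27.6 and 20.1 TPM against 31.4 and 30.2 TPM in wild type). The list of 14 summed to 2054 and 1724 TPM in knockout and 857 and 879 TPM in wild type. Most of that sum came from Dll1 (671 and 534 TPM in knockout, 236 and 241 TPM in wild type) and Cxcl12 (653 and 537 TPM in knockout, 239 and 234 TPM in wild type). Dcn was listed at 0 in all 4 libraries. Of 11 tested mast cell and basophil markers, 10 rose and 1 fell (sums of 568 and 583 TPM in knockout and 254 and 246 TPM in wild type). The 1 that fell, Cpa3, made up most of the wild-type sum (149 and 137 TPM in knockout, 179 and 181 TPM in wild type). Tpsab1 was listed at 0 in 3 libraries. Of 7 tested neutrophil granule genes 6 rose, with sums of 3464 and 3361 TPM in knockout and 1709 and 1723 TPM in wild type. Of 5 adipocyte markers 4 rose, with sums of 262 and 254 TPM in knockout and 69.0 and 58.8 TPM in wild type. Of 11 tested genes of a list named for handling stress, such as Fos and Jun, 9 fell. The list summed to 725 and 719 TPM in knockout and 1854 and 1833 TPM in wild type. Nr4a1 and Hspa1b missed the threshold, and Hspa1b lay higher in knockout (1.88 and 1.34 TPM against 1.32 and 0.535 TPM in wild type). Whether handling differed between the groups was not tested. Macrophage markers summed to 57.0 and 54.9 TPM in knockout and 60.6 and 67.4 TPM in wild type, and erythroid markers to no more than 4.71 TPM in any library, with C1qa listed at 0 in 3 libraries and Hba-a1 in all 4. The part of these shifts in the differences of the hypoxia and glycolysis genes was not tested.

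Promoter windows are shown for the 6 genes with the largest RNA difference among those with an ATAC peak at the gene start. They run from 250 bases before to 50 bases after the start, 5′ to 3′ on the gene's strand, from RefSeq on GRCm38.p6, the assembly also called mm10. Capitals mark the HIF core motifs ACGTG and GCGTG on either strand, which read CACGT and CACGC on the other one; matches can overlap, as in CACGTG.
Adm (chr7:110627407-110627706, plus strand): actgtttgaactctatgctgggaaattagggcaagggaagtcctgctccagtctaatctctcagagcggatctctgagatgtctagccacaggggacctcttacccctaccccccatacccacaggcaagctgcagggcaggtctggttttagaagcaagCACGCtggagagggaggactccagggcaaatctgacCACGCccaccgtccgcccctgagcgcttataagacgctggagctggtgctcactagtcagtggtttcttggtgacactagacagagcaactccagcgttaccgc
Ankrd37 (chr8:45999801-46000100, minus strand): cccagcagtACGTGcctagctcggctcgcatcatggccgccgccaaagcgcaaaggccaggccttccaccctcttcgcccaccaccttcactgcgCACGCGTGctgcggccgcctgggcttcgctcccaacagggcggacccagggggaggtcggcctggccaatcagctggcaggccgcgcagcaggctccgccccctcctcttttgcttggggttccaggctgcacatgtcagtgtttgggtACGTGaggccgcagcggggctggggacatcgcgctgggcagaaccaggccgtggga
Slc16a3 (chr11:120948817-120949116, plus strand): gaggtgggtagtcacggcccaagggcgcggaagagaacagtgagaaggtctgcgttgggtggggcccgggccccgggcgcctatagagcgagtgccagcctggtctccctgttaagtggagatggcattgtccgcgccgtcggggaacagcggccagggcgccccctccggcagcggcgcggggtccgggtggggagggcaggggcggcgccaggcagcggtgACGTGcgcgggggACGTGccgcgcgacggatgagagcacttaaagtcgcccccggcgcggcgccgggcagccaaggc
Bnip3 (chr7:138909457-138909756, minus strand): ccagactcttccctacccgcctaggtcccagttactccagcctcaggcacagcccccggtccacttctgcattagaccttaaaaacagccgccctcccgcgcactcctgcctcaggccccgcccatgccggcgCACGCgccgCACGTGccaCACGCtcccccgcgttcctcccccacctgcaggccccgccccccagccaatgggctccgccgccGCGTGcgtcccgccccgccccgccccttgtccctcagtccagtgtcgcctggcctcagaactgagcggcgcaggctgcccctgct
Aldoc (chr11:78322823-78323122, plus strand): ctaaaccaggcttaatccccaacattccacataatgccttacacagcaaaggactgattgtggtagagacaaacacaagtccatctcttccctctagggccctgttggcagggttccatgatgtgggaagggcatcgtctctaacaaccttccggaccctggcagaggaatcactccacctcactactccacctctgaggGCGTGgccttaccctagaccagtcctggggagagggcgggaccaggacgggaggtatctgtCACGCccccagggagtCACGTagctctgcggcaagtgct
P4ha2 (chr11:54100674-54100973, plus strand): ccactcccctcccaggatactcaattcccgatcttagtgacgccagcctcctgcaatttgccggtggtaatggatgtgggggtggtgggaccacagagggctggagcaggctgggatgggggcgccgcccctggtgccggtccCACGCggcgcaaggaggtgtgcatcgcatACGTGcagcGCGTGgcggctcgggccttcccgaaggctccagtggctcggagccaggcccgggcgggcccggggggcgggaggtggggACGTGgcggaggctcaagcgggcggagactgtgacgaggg
The Adm window holds 2 core matches, Ankrd37 4, Slc16a3 2, Bnip3 5, Aldoc 3 and P4ha2 4, counting a palindromic CACGTG in Bnip3 once for each strand. The RefSeq start lies 12 bases from the start in the deposited files for Adm and 583 bases from it for Slc16a3, and at the same base for the other 4.

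RefSeq windows were matched for 34 of the 37 genes; Bnip3l, Ndrg1 and Slc2a3 were not matched. Of the 34, 27 (79.4%) held at least 1 core motif on either strand. The share was 43.8% of all 32851 windows of 300 bases in the table and 62.7% of the 9850 genes tested in RNA that have a window. ACGTG was held by 19 (55.9%), against 25.9% of those tested genes. GCGTG was held by 20 (58.8%), nearer to the 51.2% of those tested genes. Many of the genes are on the list because they are textbook HIF targets, so these shares are a description. For each of the 34 genes only the window nearest the start in the deposited files was read. Vegfa, Mxi1, Hk1, Gpi1, Aldoa, Tpi1 and Pkm had no match in that window. Of these, Vegfa, Hk1 and Pkm have 2 RefSeq windows and Mxi1 and Aldoa 3. Hk1 had no ATAC peak within 1 kb of its start, and the nearest region at Aldoa lay 599 bases from the start. Which start the cells use was not tested, and a match or its absence does not show whether HIF binds there.

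Among the HIF regulators, Hif1a itself ran against the list. Hif1a, the oxygen-regulated alpha subunit (chromosome 12, 73901324 to 73947554, mm10), stood at 66.8 and 67.6 TPM in knockout libraries and at 55.9 and 53.0 TPM in wild-type libraries. Both knockout libraries were higher, by 0.30 on the log2 scale (SE 0.059). The difference was 0.31, 0.29 and 0.26 without knockout replicate 1, knockout replicate 2 and wild-type replicate 2, and then no longer passed the threshold, nor did it without the intensity trend.

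Of the prolyl hydroxylases that mark HIF for degradation, Egln3 and Egln1 had less RNA in knockout. Egln3, which HIF itself induces, was at 49.0 and 48.2 TPM in knockout and at 136 and 149 TPM in wild type (2.92-fold lower, log2 difference −1.53, SE 0.063). Egln1, the main HIF prolyl hydroxylase, was at 65.2 and 60.8 TPM in knockout and 81.7 and 91.4 TPM in wild type (−0.45, SE 0.077). The groups did not overlap for either gene. Egln2, the remaining family member and not on the list, stood at 36.9 and 40.3 TPM in knockout and 38.8 and 34.1 TPM in wild type, where the groups overlap. Egln3 therefore made up 32.4% and 32.3% of the RNA of the 3 hydroxylases in knockout, against 53.0% and 54.2% in wild type.

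The secreted HIF targets Adm and Vegfa were among the deepest differences. Adm, the vasodilator peptide adrenomedullin (chromosome 7, 110627669 to 110629819), stood at 0.949 and 1.36 TPM in knockout and at 28.1 and 24.6 TPM in wild type. This was the largest difference of the list, 22.8-fold lower in knockout (log2 difference −3.67, SE 0.17), and the knockout levels lie close to the minimum of 1 TPM used for testing. Vegfa, the main growth factor of blood vessels (chromosome 17, 46016993 to 46032377), was at 19.4 and 19.8 TPM in knockout and at 69.2 and 67.2 TPM in wild type (3.49-fold lower, −1.75, SE 0.068). Replicates of each genotype lay close together for both genes beside the gap between genotypes.

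The mitochondrial targets Bnip3 and Bnip3l, receptors that mark mitochondria for removal by autophagy, were both lower in knockout. Bnip3 was at 26.4 and 30.2 TPM in knockout and at 123 and 133 TPM in wild type (4.51-fold lower, −2.14, SE 0.087). Its paralogue Bnip3l was at 49.1 and 48.6 TPM in knockout and at 90.3 and 86.3 TPM in wild type (1.81-fold lower, −0.84, SE 0.057). In wild type Bnip3 was therefore the higher of the pair and in knockout the lower one. Higd1a, a small protein of the inner mitochondrial membrane, was at 24.7 and 25.6 TPM in knockout and 29.2 and 28.6 TPM in wild type and did not pass the threshold.

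Ankrd37, a small ankyrin-repeat protein gene that HIF induces, had the next largest difference after Adm. It was at 10.2 and 8.55 TPM in knockout and at 58.1 and 57.6 TPM in wild type (6.18-fold lower, −2.51, SE 0.11). Its model (chromosome 8, 45996908 to 45999850) overlaps Ufsp2 on the other strand only at 1 end, as Ufsp2 ends at 45996956. Ufsp2 stood at 75.9 and 82.0 TPM in knockout and 63.7 and 67.0 TPM in wild type. Reads in that short overlap may have been shared if strand was not used, and the rest of the Ankrd37 model lies outside it. Kdm3a, a histone H3 lysine 9 demethylase, was at 38.6 and 38.0 TPM in knockout and at 83.0 and 86.1 TPM in wild type (2.21-fold lower, −1.12, SE 0.058).

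The collagen prolyl hydroxylase subunits P4ha1 and P4ha2, which modify collagen rather than HIF, were lower as well. P4ha1 was at 39.4 and 39.5 TPM in knockout and at 83.1 and 79.7 TPM in wild type (2.06-fold lower, −1.03, SE 0.059). P4ha2 was at 9.13 and 4.26 TPM in knockout and at 25.6 and 23.1 TPM in wild type (3.63-fold lower, −1.79, SE 0.31). The knockout libraries of P4ha2 lay far apart, though both below wild type, and the call was lost without wild-type replicate 1 or 2 (−1.72 and −1.86).

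Ndrg1, a stress-responsive gene, and Ddit4, which restrains the kinase mTORC1, showed smaller differences. Ndrg1 was at 57.1 and 50.7 TPM in knockout and at 76.2 and 80.2 TPM in wild type (1.45-fold lower, −0.53, SE 0.077). Ddit4 was at 12.3 and 13.0 TPM in knockout and at 21.8 and 18.6 TPM in wild type (1.60-fold lower, −0.63, SE 0.12). The Ddit4 call was lost without knockout replicate 1 (−0.59) and without wild-type replicate 1 (−0.52). Mxi1, a repressor that competes with Myc for its partner Max, differed by −0.48 (SE 0.10), just under the size of 0.5 set for values in full, with libraries that did not overlap.

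All 3 transporters were lower in knockout, and the lactate exporter most of all. Slc16a3 (MCT4), which exports lactate from glycolytic cells, was at 2.12 and 4.10 TPM in knockout and at 17.4 and 18.4 TPM in wild type (5.75-fold lower, −2.24, SE 0.25). Slc16a1 (MCT1), the broadly expressed lactate transporter and not on the list, was at 43.0 and 42.1 TPM in knockout and at 28.9 and 23.0 TPM in wild type (0.70, limma adjusted p = 0.00814). The sum of the pair was 45.1 and 46.2 TPM in knockout and 46.4 and 41.3 TPM in wild type. Slc16a3 made up 4.71% and 8.88% of that sum in knockout and 37.6% and 44.4% in wild type.

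The glucose transporters differed by less. Slc2a1 (GLUT1), the basal glucose transporter, was at 25.6 and 25.0 TPM in knockout and at 49.4 and 45.5 TPM in wild type (1.87-fold lower, −0.88, SE 0.077). Slc2a3 (GLUT3), a transporter of high affinity, was at 29.5 and 32.2 TPM in knockout and at 47.0 and 46.2 TPM in wild type (1.51-fold lower, −0.58, SE 0.076). Groups did not overlap for either gene. Slc2a1 made up 46.5% and 43.7% of the RNA of the pair in knockout and 51.2% and 49.6% in wild type.

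**Figure D2:**
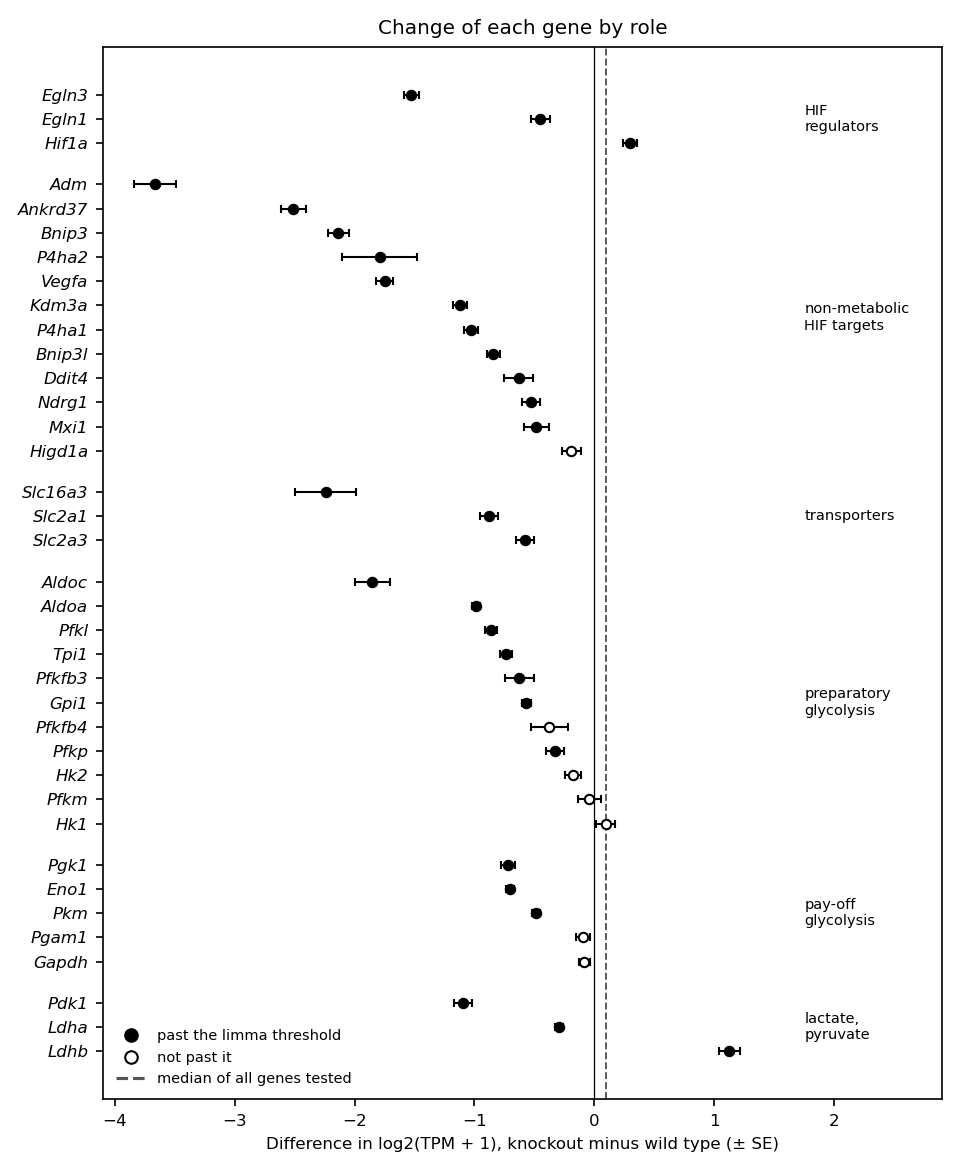
Difference in log2(TPM + 1), knockout minus wild type, of each of the 37 genes with its standard error, ordered within each role. Filled points passed the limma threshold, and the dashed line is the median of all genes tested, 0.093. Adm lies furthest left at −3.67 and Ldhb furthest right at 1.13.

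Along the glycolytic pathway the enzymes did not move evenly, with differences of single genes from −1.85 to 0.10. Of the 11 preparatory genes, from hexokinase to triose phosphate isomerase, 7 were lower past the threshold and 4 did not pass. Of the 5 pay-off enzymes, 3 were lower and 2 did not pass. Over all genes tested, 14.7% were called lower and 25.2% higher, and no inference is drawn from these counts. The 16 genes together summed to 4104 and 3946 TPM in knockout and to 5734 and 5847 TPM in wild type.

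Of the hexokinases, which phosphorylate glucose, Hk1 and Hk2 did not pass the threshold. Hk2, the isozyme that HIF induces, was at 56.4 and 55.9 TPM in knockout and at 66.4 and 61.1 TPM in wild type (−0.18, SE 0.065). Its libraries did not overlap, and it passed the threshold after quantile normalization (−0.26) and median-ratio scaling (−0.28). Hk1, the housekeeping isozyme, stood at 107 TPM in both knockout libraries and at 93.0 and 108 TPM in wild type, where the groups overlap. Hk3, an isozyme known from myeloid cells and not on the list, rose to 74.97 and 74.98 TPM in knockout, against 26.6 and 30.9 TPM in wild type (1.36, SE 0.088, limma adjusted p = 0.000571). Hk1, Hk2 and Hk3 together summed to 239 and 238 TPM in knockout and to 186 and 200 TPM in wild type, so hexokinase RNA was higher in knockout. Hk3 made up 31.4% and 31.5% of that sum in knockout and 14.3% and 15.4% in wild type.

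The next steps were lower. Gpi1, which converts glucose 6-phosphate to fructose 6-phosphate, was at 299 and 291 TPM in knockout and at 436 and 438 TPM in wild type (1.48-fold lower, −0.57, SE 0.035). Of the phosphofructokinase subunits that commit sugar to glycolysis, Pfkl was at 67.8 and 68.3 TPM in knockout and at 124 and 126 TPM in wild type (1.83-fold lower, −0.86, SE 0.048). Pfkp differed by −0.32 (SE 0.075), and Pfkm by −0.04 with libraries that overlap. Pfkl made up 50.8% and 51.7% of the RNA of the 3 subunits in knockout, against 62.5% in both wild-type libraries. Pfkm and Pfkp overlap Senp1 and Pitrm1 on the other strand, both of which rose in knockout (0.42 and 0.59, limma adjusted p = 0.0145 and 0.00417).

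Pfkfb3 and Pfkfb4 make fructose 2,6-bisphosphate, an activator of phosphofructokinase. Pfkfb3 was at 25.2 and 25.3 TPM in knockout and at 44.5 and 35.1 TPM in wild type (1.58-fold lower, −0.63, SE 0.12). Its wild-type libraries were far apart, and the call was lost without knockout replicate 1 (−0.62) and without knockout replicate 2 (−0.63). Pfkfb4 was at 5.45 and 5.09 TPM in knockout and at 7.60 and 6.69 TPM in wild type and did not pass.

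The aldolases, which split the sugar, showed the largest differences among the enzymes. Aldoa, the most abundant enzyme of the wild-type libraries on the list, was at 574 and 554 TPM in knockout and at 1129 and 1106 TPM in wild type (1.98-fold lower, −0.99, SE 0.034). Aldoc, a minor isozyme here, was at 4.04 and 4.46 TPM in knockout and at 16.5 and 19.5 TPM in wild type (4.23-fold lower, −1.85, SE 0.15). Aldoc made up 0.700% and 0.800% of aldolase RNA in knockout and 1.44% and 1.73% in wild type. Tpi1, which interconverts the 2 triose phosphates, was at 175 and 160 TPM in knockout and at 279 and 281 TPM in wild type (1.67-fold lower, −0.74, SE 0.053).

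Gapdh, which oxidizes the triose phosphate and is often used as a reference gene, was at 1028 and 949 TPM in knockout and at 1033 and 1058 TPM in wild type. The difference was −0.08 (SE 0.046) and did not pass as deposited, but did after quantile normalization (−0.18) and median-ratio scaling (−0.19). Pgam1, the mutase further down, likewise differed by −0.10 (SE 0.056). Between them in the pathway, Pgk1, which makes the first ATP, was at 291 and 277 TPM in knockout and at 447 and 493 TPM in wild type (1.65-fold lower, −0.72, SE 0.058). Eno1, the enolase, was at 486 and 465 TPM in knockout and at 782 and 767 TPM in wild type (1.63-fold lower, −0.70, SE 0.036). Pkm, pyruvate kinase, stood just under the size for values in full, at 757 and 760 TPM in knockout and at 1037 and 1092 TPM in wild type (−0.49, SE 0.036). Several glycolytic genes, Gapdh above all, have near-identical pseudogene copies, and reads may have been split between them. Eno1 shares its place and strand with a model named Eno1b, which did not exceed 1.06 TPM.

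At the end of the pathway the lactate dehydrogenase subunits parted. Ldha, the subunit that favours lactate, was at 568 and 564 TPM in knockout and at 703 and 686 TPM in wild type (1.23-fold lower, −0.29, SE 0.032). Ldhb, the subunit that favours pyruvate, was at 52.8 and 47.0 TPM in knockout and at 21.6 and 23.1 TPM in wild type. It was 2.24-fold higher in knockout (log2 difference 1.13, SE 0.089), the largest rise of the list. Ldhb made up 8.50% and 7.69% of lactate dehydrogenase RNA in knockout and 2.97% and 3.25% in wild type.

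Pdk1, the kinase that HIF induces to shut off pyruvate dehydrogenase, was at 39.9 and 37.9 TPM in knockout and at 88.4 and 79.8 TPM in wild type (2.16-fold lower, −1.09, SE 0.074). The groups did not overlap. A model named Mir5098 overlaps part of Pdk1 on the same strand and stood at 3.38 and 1.38 TPM in knockout and 15.0 and 6.92 TPM in wild type. Pdk3, another kinase of the family and not on the list, was at 76.5 and 69.0 TPM in knockout and at 62.8 and 67.7 TPM in wild type and did not pass. Pdk2 was lower in knockout (7.49 and 5.40 TPM against 10.6 and 11.5 TPM in wild type, limma adjusted p = 0.0284). Pdk4 was higher (5.94 and 5.32 TPM against 2.92 and 3.72 TPM, limma adjusted p = 0.0483). Pdk1 made up 30.7% and 32.2% of the RNA of the 4 kinases in knockout and 53.7% and 49.0% in wild type.

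**Figure D3:**
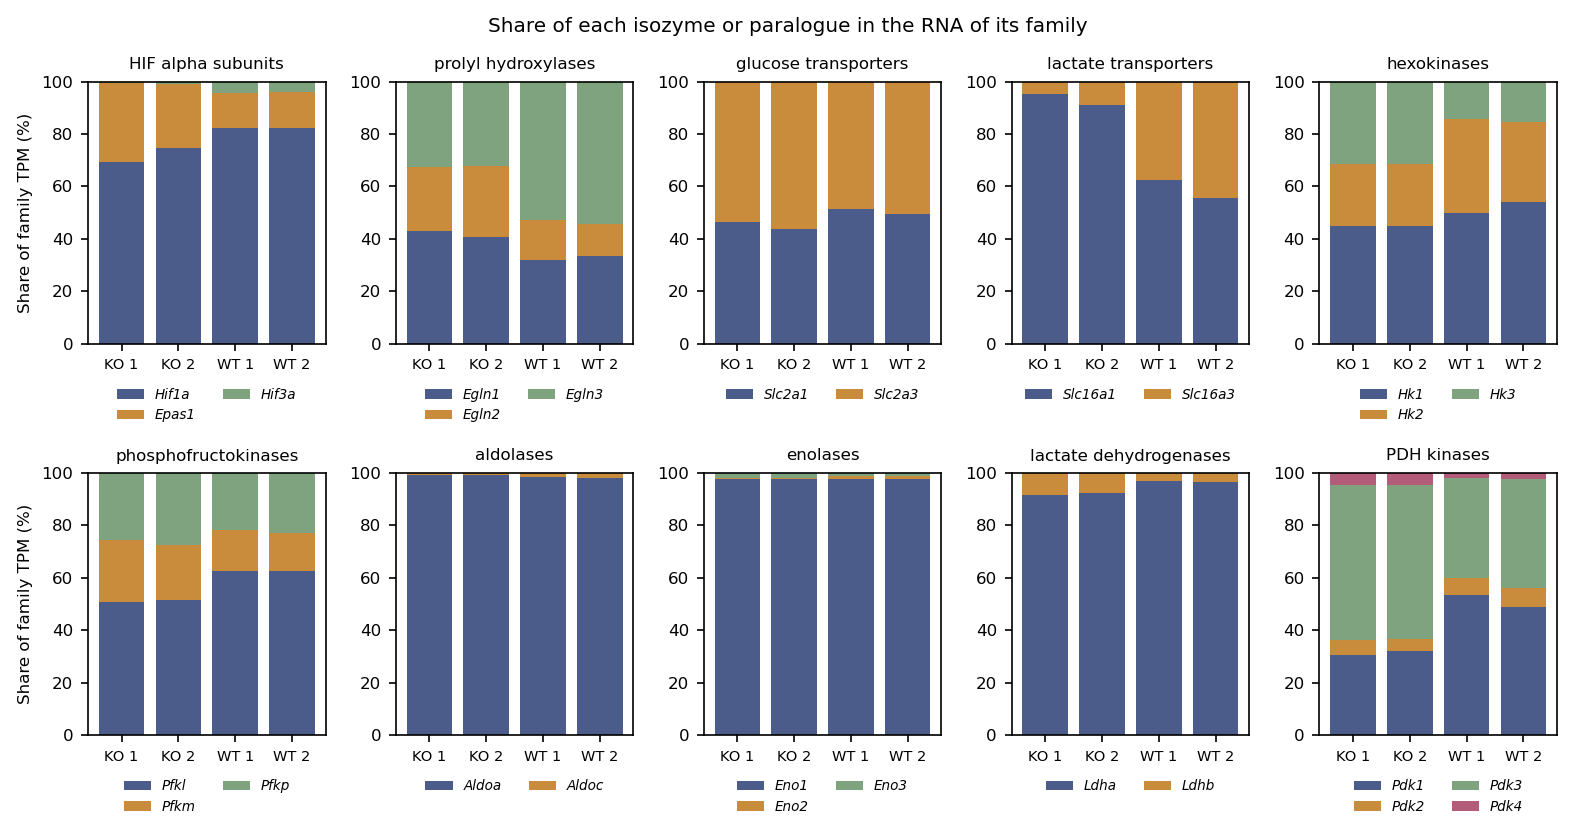
Share of summed family TPM (percent) taken by each isozyme or paralogue in the 2 knockout (KO) and 2 wild-type (WT) RNA libraries. Slc16a3, Egln3 and Pdk1 take a smaller share in both knockout libraries, and Hk3, Ldhb and Epas1 a larger one, than in either wild-type library.

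To see how the rest of the pathways stood, 114 genes outside the list were read from the same fit, 99 of which passed the filter. They were chosen for their textbook role and not for how they moved, although with results of these data known. Among 36 tested further HIF targets, 21 fell and 3 rose, 12 missed the threshold, and the median difference was −0.37; over all genes tested, 14.7% were called lower and 25.2% higher. Bhlhe40, a transcriptional repressor, fell to 8.73 and 7.68 TPM in knockout, against 38.3 and 37.8 TPM in wild type (−2.09, SE 0.10, limma adjusted p = 0.00034). Ccng2, an inhibitor of cell division, fell to 23.6 and 25.5 TPM in knockout, against 61.6 and 55.6 TPM in wild type (−1.22, SE 0.086, limma adjusted p = 0.00067). Tfrc, the transferrin receptor, rose to 157 and 154 TPM in knockout, against 72.6 and 68.9 TPM in wild type (1.12, SE 0.051, limma adjusted p = 0.000281). The hormones Stc1 and Stc2, both under 4 TPM in every library, differed by −0.89 and −1.23 (limma adjusted p = 0.0471 and 0.018). The Stc1 call was lost on leaving out any single library (limma adjusted p = 0.0772 to 0.144), with a pseudocount of 0.1 (0.0619) and after quantile normalization (0.0588), and the Stc2 call without either knockout replicate or wild-type replicate 2 (0.0618 to 0.0786). The count of HIF targets that fell was 11 and 10 without knockout replicates 1 and 2, 10 and 7 without wild-type replicates 1 and 2, and 13 without the filter on low values.

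The HIF machinery outside the list moved in both directions. Of 11 tested genes, 5 rose and 2 fell, 4 missed the threshold, and the median difference was 0.08, beside 25.2% of all genes called higher and 14.7% lower. Epas1, which encodes the HIF-2 alpha subunit, rose to 28.7 and 22.2 TPM in knockout, against 9.07 and 8.58 TPM in wild type (1.42, SE 0.15, limma adjusted p = 0.00183). Hif3a, an alpha subunit that can restrain the others, stood at 0.719 and 0.889 TPM in knockout and at 3.07 and 2.69 TPM in wild type (−1.11, SE 0.24, limma adjusted p = 0.0168). The Hif3a call was lost without knockout replicate 1 or either wild-type replicate (limma adjusted p = 0.0569 to 0.075). The count of risen genes was 2 without knockout replicate 1 and without wild-type replicate 1, 3 without knockout replicate 2, and 3 after median-ratio scaling and without the intensity trend. The count that fell was 1 without knockout replicate 1, without either wild-type replicate and with a minimum of 5 TPM. Hif1a made up 69.4% and 74.6% of alpha subunit RNA in knockout and 82.1% and 82.5% in wild type, and Epas1 29.8% and 24.5% in knockout and 13.3% and 13.4% in wild type.

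Among 19 tested further isozymes, transporters and kinases, 6 fell and 3 rose, 10 missed the threshold, and the median was 0.11, beside 14.7% of all genes called lower and 25.2% higher. Eno2, the neuronal enolase isozyme, which HIF can induce, fell to 2.31 and 1.26 TPM in knockout, against 9.38 and 10.1 TPM in wild type (−1.97, SE 0.24, limma adjusted p = 0.00273). Tigar, a p53 target that diverts sugar from glycolysis, rose to 5.15 and 4.66 TPM in knockout, against 1.84 and 1.87 TPM in wild type (1.05, limma adjusted p = 0.00995). That call was lost without knockout replicate 1 (0.0577). Pgam2 and Ldhd differed by −0.85 and −0.77 (limma adjusted p = 0.0168 and 0.0252). The Pgam2 call was lost without either knockout replicate or wild-type replicate 1 (0.0559 to 0.0908), and the Ldhd call on leaving out any single library (0.0569 to 0.118) and without the filter on low values (0.065). The count that fell was 3 and 2 without knockout replicates 1 and 2, 2 and 3 without wild-type replicates 1 and 2, and 3 without the filter; the count that rose was 1 without knockout replicate 1 and with a minimum of 5 TPM.

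Of 26 genes of pyruvate import, pyruvate dehydrogenase and the citrate cycle, all tested, 17 rose and 9 did not pass, beside 25.2% of all genes called higher. The median difference of the list was 0.36, and Pdha1, a subunit of pyruvate dehydrogenase, was its single gene with a difference below 0 (−0.11, not past the threshold). Idh3a, a subunit of isocitrate dehydrogenase, rose to 140 and 136 TPM in knockout, against 76.5 and 72.3 TPM in wild type (0.88, SE 0.053, limma adjusted p = 0.000479). Mpc2, a subunit of the carrier that takes pyruvate into mitochondria, rose to 56.9 and 62.2 TPM in knockout, against 33.99 and 33.02 TPM in wild type (0.81, SE 0.074, limma adjusted p = 0.00126). The list summed to 2788 and 2758 TPM in knockout and to 2147 and 2117 TPM in wild type. The count of risen genes was 10 without wild-type replicate 1, 11 without wild-type replicate 2 and 11 without the intensity trend, and 1 gene of the list passed as lower after quantile normalization and again after median-ratio scaling. Of 7 pentose phosphate genes, which branch off after hexokinase, 4 rose (G6pdx, Pgd, Rpia and Tkt, named after their values were seen) and 3 did not pass, beside the same 25.2%, with a median of 0.34 and the same count in every alternative run.

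**Figure D4:**
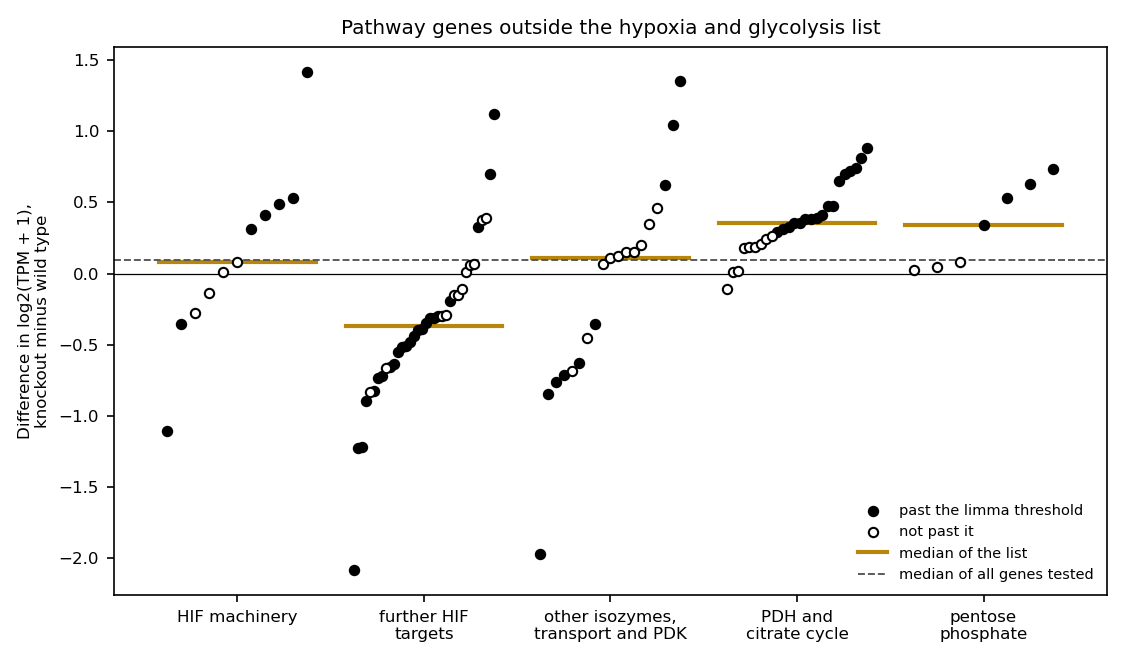
Difference in log2(TPM + 1), knockout minus wild type, of 99 tested pathway genes outside the list of 37, by list and in rank order. Filled points passed the limma threshold. The bar is the median of each list, −0.37 for further HIF targets and 0.36 for pyruvate dehydrogenase and the citrate cycle, beside 0.093 (dashed) for all genes.

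The ATAC-seq peak lists were read at the same genes. The starts of these genes were open in both genotypes. For 36 of the 37 genes, every one of the 4 lists held a peak within 1 kb of the start, against 87.5% of the genes tested in RNA. Hk1 was the exception and had none within 1 kb in any list. A region in all 4 lists lay inside the Hk1 model, 39162 bases from its start and over the start of Hk1os. Its −log10 q was 249 and 291 in knockout and 224 and 246 in wild type. The starts of Adm, Ankrd37, Bnip3 and Vegfa were called in both knockout libraries. Each peak's −log10 q and fold enrichment below are the authors' values.

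At the start of Adm the −log10 q was 21.6 and 25.0 in the knockout lists and 28.2 and 23.4 in the wild-type lists, where the values of the genotypes overlap. At Ankrd37 it was 292 and 317 in knockout and 304 and 286 in wild type, and at Bnip3 297 and 312 in knockout and 275 and 267 in wild type, where the fold enrichment was 14.1 and 14.2 in knockout and 14.6 and 14.3 in wild type. At Vegfa the −log10 q was 73.2 and 88.1 in knockout and 89.2 and 105 in wild type. The fold enrichment at Vegfa was 7.69 and 8.49 in knockout and 8.65 and 9.75 in wild type. At Ldhb, which had more RNA in knockout, the −log10 q was 157 and 155 in knockout and 96.3 and 90.4 in wild type. The fold enrichments there were 19.9 and 19.4 in knockout and 18.4 and 16.4 in wild type. At Hif1a, the other gene called higher, the −log10 q was 34.8 and 29.1 in knockout and 20.3 and 23.1 in wild type. Its fold enrichments were 14.4 and 11.6 in knockout and 10.8 and 11.4 in wild type. The −log10 q of both knockout lists lay above that of both wild-type lists at most starts with a peak. Only at Vegfa did both wild-type lists lie above both knockout lists. A higher −log10 q in knockout was thus also found at genes with less RNA there. This value was 459 and 504 in knockout and 290 and 298 in wild type at Pgk1. At Ddit4 it was 472 and 453 in knockout and 369 and 365 in wild type. The fold enrichment at Pgk1 was 18.9 and 19.6 in knockout and 19.1 and 19.2 in wild type, where the genotypes overlap. At Ddit4 the fold enrichment was 18.5 and 18.2 in knockout and 17.3 and 16.7 in wild type. Peak lists carry no read counts, so none of these values was compared by a test, and a difference in −log10 q can follow depth. For Hif1a, Gapdh and Slc16a3 the RefSeq start lies 6543, 694 and 583 bases from the start in the deposited files, which was used here.

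Within 50 kb of the starts lay 535 regions, merged over the 4 lists, of which 350 had a peak in every list. Regions found in both knockout lists and in neither wild-type list numbered 30 (5.61%), against 5.89% of 81739 regions near any gene tested. Regions found in both wild-type lists and in neither knockout list numbered 20 (3.74%), against 4.25%. Both shares lay near the background. Among the 11 genes whose RNA difference was below −1, Ankrd37, Aldoc and Kdm3a had none of either kind, and Adm, Bnip3, P4ha1 and Pdk1 had 1 each, found in knockout. Slc16a3 had 1, found in wild type, Egln3 had 1 of each kind, P4ha2 had 2 of each kind, and Vegfa had 1 found in knockout and 3 found in wild type.

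Vegfa and Egln1 had the most regions found in wild type alone, 3 each. One of those at Vegfa lay 1844 bases upstream of its start (chromosome 17, 46034221 to 46034411, −log10 q 18.0 and 15.4), outside any gene model, and a region 1285 bases inside the gene was found in knockout alone (46030929 to 46031092, −log10 q 6.78 and 8.13). At Egln1 the regions lay inside the gene, 5887 and 20314 bases from the start (chromosome 8, 124942994 to 124943367, −log10 q 18.2 and 36.9, and 124928716 to 124928940, 16.4 and 20.5), and 42124 bases upstream. Egln1 also had 2 regions found in knockout alone, 1 inside the gene (124922585 to 124922750, −log10 q 6.83 and 8.43) and 1 beside the upstream wild-type region, 41720 bases from the start (124990974 to 124991198, 8.94 and 7.02). The files give no exons, so a position inside a gene cannot be split here into exon, intron or UTR.

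Ranked by the lower −log10 q of its replicates, the first region of 1 genotype was in wild type, inside Hk2 and 29374 bases from its start (chromosome 6, 82744458 to 82745080), with a −log10 q of 27.1 and 27.6. A wild-type region 48683 bases upstream of Bnip3l (chromosome 14, 67057560 to 67057837, −log10 q 25.2 and 35.8) lay inside Ppp2r2a, whose start is nearer; its fold enrichment, 11.6 and 13.5, was above that of the Hk2 region, 6.87 and 6.88. Near Pgam1 a knockout region lay inside the gene (chromosome 19, 41913977 to 41914356, −log10 q 25.4 and 21.2) and a wild-type region 9851 bases upstream (41901757 to 41902020, 26.7 and 19.2), nearer to Rrp12. A wild-type region 41796 bases beyond the start of Slc2a1 (chromosome 4, 119150541 to 119150878, 17.3 and 30.6) was nearest to Zfp691. The next knockout regions in that ranking were near P4ha2, inside Pdlim4 (chromosome 11, 54060378 to 54060727, 15.2 and 25.1), and inside Pfkfb4 (chromosome 9, 109027562 to 109027857, 14.6 and 13.7), where the start of Shisa5 is nearer. In all, Bnip3l had 3 regions found in knockout alone and 1 in wild type alone, Hk2 1 and 2, Pgam1 2 and 1, Slc2a1 1 and 1, and Pfkfb4 1 in knockout. These regions stood beside genes with small RNA differences (Hk2 and Pgam1) as well as large ones.

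**Figure D5:**
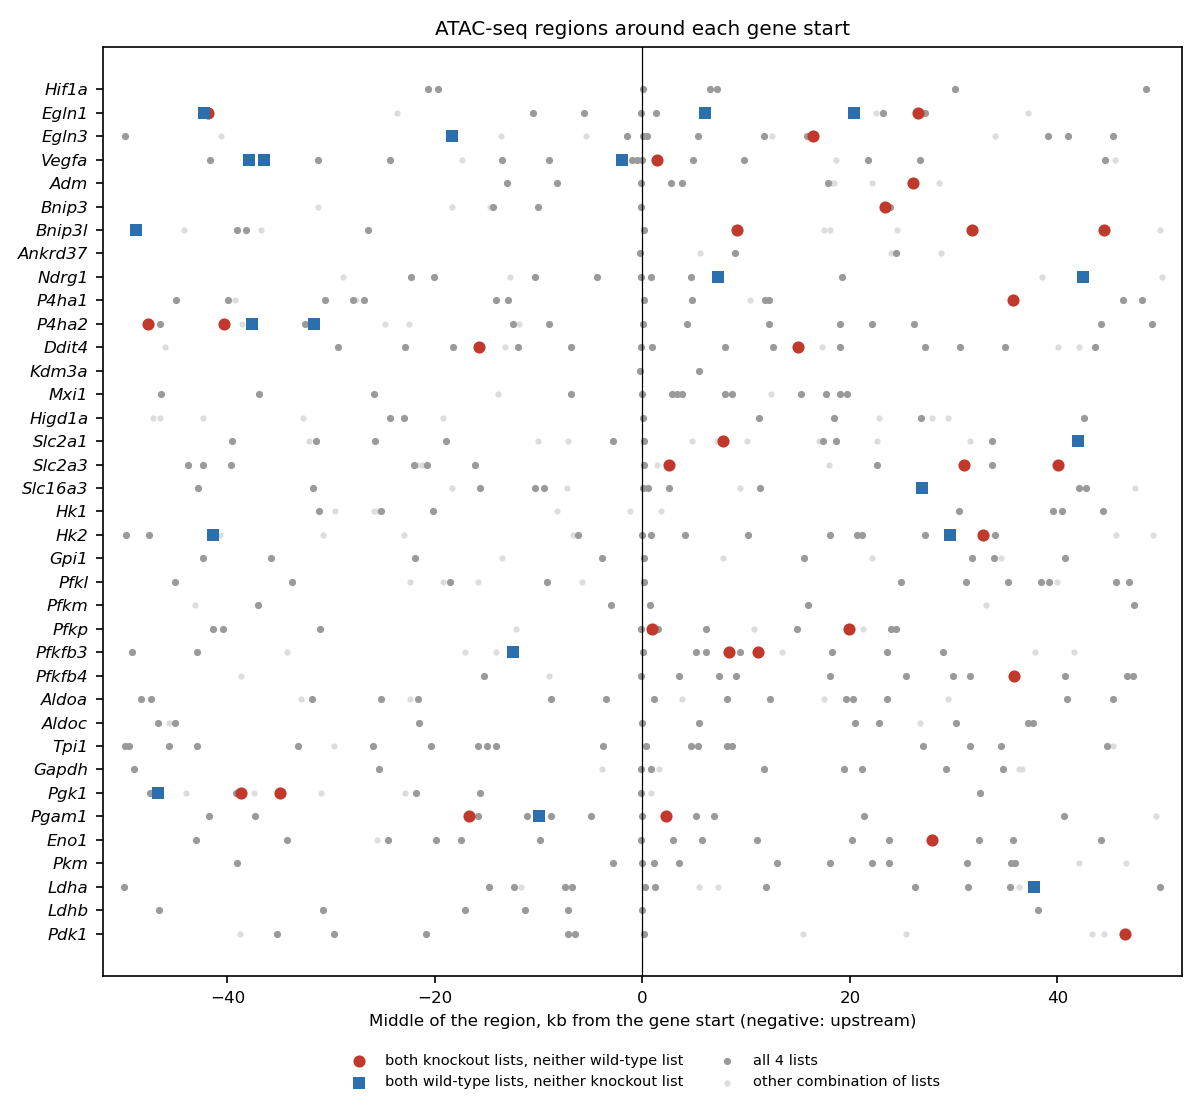
Merged ATAC-seq regions within 50 kb of the start of each gene, by the distance of their middle from the start in kb, with negative values upstream. Large circles are found in both knockout lists only (30 regions), squares in both wild-type lists only (20 regions) and dark grey points in all 4 lists (350 regions).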

How the data were processed

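RNA-seq and ATAC-seq were each measured in 2 knockout and 2 wild-type libraries. The submitters' processing notes name HISAT2, StringTie, Bowtie2 and MACS2 and the build mm10, with no versions, parameters or roles. Strand use, peak thresholds and any read shift are not stated. The deposited TPM sums to 1000000 per library, and the deposited FPKM and coverage signal were used only for an alternative and for relative depth. The deposited narrowPeak lists, 1 per library, give the authors' fold enrichment (a ratio), −log10 p and −log10 q. No file used here holds read counts, so counting error is not given and ATAC depth is unknown.

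TPM was summed by gene ID. Differences in log2(TPM + 1) were fitted with limma 3.58.1 (lmFit, eBayes with trend) in R 4.3.3, on genotype alone, for the 13228 genes averaging 1 TPM or more. The threshold was a Benjamini-Hochberg adjusted p of 0.05. The scale understates changes of low genes. Replicate numbers were not treated as pairs: deviations of same-numbered libraries correlated at 0.00432 across genes. Peaks outside the mitochondrial chromosome were merged where they shared a base. An exact test of 2 against 2 cannot go below p = 0.333. The fit was tested on simulated data, where it recovered most genes changed by 1 on the log2 scale, though fewer than at first required, and only a minority of those changed by 0.5. Far fewer genes were changed in the simulation than were called in the data, so its recovery rates do not give those of the data. A gene with a small difference can still miss the threshold.

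The 37 genes, the other lists and the tests were chosen with earlier results of these data known. Values in each library are given for genes whose genotypes do not overlap and differ by at least 0.5 (log2), and for Hif1a, Vegfa, Slc2a1, Hk2, Gapdh, Ldha and Pdk1. Of genes outside the list, called genes with a difference of at least 0.75, up to 5 a list, are named. Family partners for comparison (Egln2, Slc16a1, Pdk2, Pdk3, Pdk4 and overlapping genes) were added after their values were seen. Of regions, the 10 with the highest lower replicate −log10 q are given, with further ones at Vegfa and Egln1. Further genes of the list are given beside their family or at the edge of the 0.5 rule. Ero1a was matched by its older symbol Ero1l, and Azu2 of the neutrophil list was not found. Alternatives varied the pseudocount, filter, scaling, unit, trend, replicate block, libraries, peak threshold, overlap and windows.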

Additional observations from a re-analysis of the deposited data

How the results depend on the processing

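Of 364 values of the 28 genes given in full under 13 alternatives, 350 stayed on their side of the threshold, 10 lost and 4 gained it, and the direction was the same in all 364. Of 176 values of the 14 named genes outside the list, 154 stayed and 22 lost it. The 37 genes held 24 to 27 lower calls without 1 library, and 1 or 2 higher; without the intensity trend 1 was higher. Over all genes, 1088 to 1450 were lower and 2005 to 2242 higher without 1 library. Of pathway genes outside the list, 11 to 15 were lower and 20 to 25 higher without 1 library, and 18 lower without the filter on low values. With the replicate number as a block, 1798 genes were lower and 3072 higher, 28 and 2 of the 37, and 25 and 31 of those outside the list. The Stc1 call was then lost (limma adjusted p = 0.0773). No other of the 28 genes given in full or the 14 named outside the list changed its call under the block. Within 50 kb, 46 to 66 regions were in knockout alone and 24 to 42 in wild type alone without 1 ATAC library, where 1 list then decides presence, and 13 and 6 with a window of 20 kb. The cause of the other changes was not tested. TPM carries no counting error, so precision rests on 2 libraries a group, and genes near 1 TPM are least certain.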
